A study of Mus musculus with 80 samples.

Results

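Kcnq1ot1 and 8 protein-coding genes around it on mouse chromosome 7 (Kcnq1, Cdkn1c, Phlda2, Slc22a18, Tssc4, Cd81, Ascl2 and Nap1l4) were followed through 80 libraries of chromatin-associated RNA. The 9 genes were chosen by name, as the noncoding RNA and the imprinted genes or close neighbours of its cluster, out of 22556 genes in each of the 6 deposited expression tables, and all 9 were listed in every table. Kcnq1ot1 is a long noncoding RNA that starts inside an intron of Kcnq1 and runs antisense to it. It is transcribed from the paternal chromosome, where the CpG island at its start is free of methylation, and it is known for silencing neighbouring genes in cis with the help of Polycomb and histone methyltransferase complexes, over a wider stretch in the placenta than in the embryo. In embryonic stem cells many of these neighbours are known to be little transcribed.

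The study asked how depleting factors of the N6-methyladenosine (m6A) pathway and of nuclear RNA decay alters Xist RNA and X silencing, and sequenced RNA kept on the chromatin pellet (ChrRNA-seq) of mouse embryonic stem (mES) cells. All cells had a Cast x 129S strain background, a TetOn promoter in place of the endogenous Xist promoter of a single allele, and a target protein fused to the FKBP12-F36V tag, which the small molecule dTAG-13 directs to degradation. Each line was sequenced in 4 conditions. These were untreated, with dTAG-13 alone (26 h in the sample titles), with doxycycline (Dox) at 1.0 ug/mL for 24 h to induce Xist, and with both agents, where dTAG-13 preceded Dox by 2 h and stayed through the 24 h of induction. METTL3, which carries the catalytic site of the m6A writer complex, was tagged in 4 clones, N-terminally in G4 and H1 and C-terminally in C3 and H5. ZCCHC8, which belongs to the nuclear exosome targeting (NEXT) complex, was tagged in clones Z4F and Z12H, and YTHDC1, a nuclear m6A reader, in clones Y9F and Y12H, which were sequenced in 2 experiments. ZFC3H1, a subunit of the PAXT exosome connection, was tagged in clones 8H and 11A. The TetOn promoter was on the Cast allele in the METTL3 and ZFC3H1 lines and on the 129S allele, with Bgl stem loops added to Xist, in the ZCCHC8 and YTHDC1 lines. In 4 further lines, made in METTL3 clone H5, GFP-METTL3 was also expressed from the Rosa locus, either wild type (WT) or as the catalytically inactive form (D395A). WT_P2B3 and D395A_1F kept both X chromosomes (XX) and WT_1A and D395A_9F are labelled XiO, having kept only the X with inducible Xist. Each transgene line is 1 clone with 2 replicates, so that spread there does not include differences between clones. Cells were grown on mitomycin-inactivated mouse fibroblasts.

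Libraries held 8583487 to 34392078 reads, recovered from the deposited CPM values (counts scaled by library size), and 3 reads, taken as the floor of detection, were worth 0.0872 to 0.350 CPM. These limits cover counting error only. Tagging removes protein and not RNA, so the RNA of the targeted gene gives no check of the labels. Summed levels of 8 embryonic stem cell markers were 788 to 2247 CPM, those of 9 feeder fibroblast markers 1.89 to 19.2 CPM, those of 8 trophoblast markers 13.4 to 69.4 CPM and those of 8 primitive endoderm markers 152 to 853 CPM. Of the stem cell markers, Sox2 was listed at 0 in all 80 libraries, and of the feeder markers Lum was at 0 in 70. In such bulk libraries fewer cells of a type and less RNA per cell cannot be told apart, and reads of both alleles were counted together, so no value here separates the paternal from the maternal chromosome.

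On mm10, Kcnq1ot1 spans chr7:143213111-143296547 on the minus strand (83437 bases) and lies within Kcnq1, which spans chr7:143107254-143427042 on the plus strand (319789 bases). Cdkn1c, Slc22a18, Phlda2 and Nap1l4 follow on the higher side, the last ending 252.573 kb from the Kcnq1ot1 start, and Tssc4, Cd81 and Ascl2 lie on the lower side, out to Ascl2, whose far end is at -329.725 kb. RefSeq promoter windows of GRCm38.p6, the mm10 assembly of C57BL/6J, were at hand for 6 of the 9 members. The windows of Kcnq1ot1 and Slc22a18, the members with the clearest changes in the ZCCHC8 and METTL3 lines, are printed 5′ to 3′ from 250 bases before to 50 bases after the start, with CG in capitals. They lie at chr7:143296498-143296797 on the minus strand and chr7:143473539-143473838 on the plus strand.
Kcnq1ot1: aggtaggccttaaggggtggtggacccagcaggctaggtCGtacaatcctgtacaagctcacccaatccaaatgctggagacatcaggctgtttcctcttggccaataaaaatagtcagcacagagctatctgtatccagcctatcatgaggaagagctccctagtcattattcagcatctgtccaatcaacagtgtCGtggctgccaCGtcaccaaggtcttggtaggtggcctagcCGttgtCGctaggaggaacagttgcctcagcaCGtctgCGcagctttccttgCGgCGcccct
Slc22a18: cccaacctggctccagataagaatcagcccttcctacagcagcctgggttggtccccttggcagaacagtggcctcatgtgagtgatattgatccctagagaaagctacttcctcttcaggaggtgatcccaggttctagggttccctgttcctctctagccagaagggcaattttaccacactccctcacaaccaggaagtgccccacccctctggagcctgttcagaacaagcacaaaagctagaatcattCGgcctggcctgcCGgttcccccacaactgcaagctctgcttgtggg
The Kcnq1ot1 window held 9 CG, and 45.8% of 32851 mouse promoter windows of the same length held as many or more. It also held 3 copies of CCAAT, the motif of the factor NF-Y, counted on both strands, and 3.37% of all windows held as many or more. The Ascl2 window held 3 copies too, and those of Phlda2 and Tssc4 held 1 each (37.4% of windows held as many or more). The Slc22a18 window held 2 CG (85.9% of windows held as many or more) and no CCAAT. Windows of Tssc4, Cd81 and Ascl2 held 23 CG each (21.5% of windows held as many or more) and that of Phlda2 held 26 (16.9%). These counts describe the reference sequence, and methylation was not measured here.

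**Figure D1:**
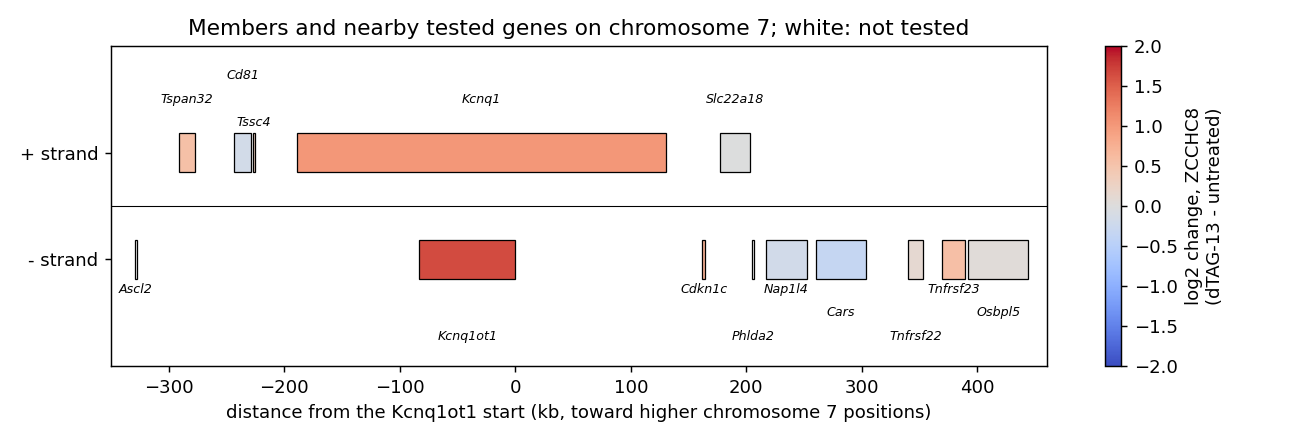
Map of the 9 members and of nearby tested genes on chromosome 7, by distance in kb from the Kcnq1ot1 start, with plus-strand genes above the line and minus-strand genes below. Colour gives the log2 change with dTAG-13 in ZCCHC8 cells without Dox, and Kcnq1ot1 (1.65) and Kcnq1 (1.02) show the deepest red.

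Kcnq1ot1 was far the most abundant member. Its level ran from 1371 to 6185 CPM with a median of 1990, or 16.4 to 74.1 CPM per kb of span, and all libraries held it. Per kb, the median over 80 libraries was 23.9 CPM for Kcnq1ot1, against 4.18 for Nap1l4, a histone chaperone, 3.14 for Cd81, a tetraspanin of the cell surface, and 2.37 for Tssc4, a factor of snRNP assembly. The remaining members were lower. Medians per kb were 0.310 CPM for Phlda2, a placental growth restraint, 0.190 for Cdkn1c, a cyclin-dependent kinase inhibitor, and 0.127 for Ascl2, a trophoblast transcription factor. Slc22a18, an organic cation transporter, had a median of 0.0615 CPM per kb and Kcnq1, a potassium channel subunit, 0.0189 CPM per kb.

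Changes with dTAG-13 were tested in 9 lines, with Dox (dTAG-13 and Dox against Dox) and without (dTAG-13 against untreated), 18 comparisons in all. Each table was fitted with limma on log2(CPM + 1) for the genes whose mean reached 1 CPM, and a gene is called at a Benjamini-Hochberg adjusted p under 0.05 over all genes tested. Replicates are clones in the degron lines and repeats of a clone in the transgene lines, and p values measure only the spread between them. The filter left 6 members in each table and 7 in the table of ZCCHC8 and YTHDC1 experiment 1, where Cdkn1c also passed. The transgene lines were fitted without a block and again with the replicate as a block, since per the study's methods the wells of a replicate came from a shared batch of cells, and both values are given where they differ in the call. Kcnq1ot1 was called in 7 of 18 comparisons, 5 higher and 2 lower, and in 9 with that block, 7 higher and 2 lower. Kcnq1 was called in 3 (4 with the block) and Slc22a18 in 2 (6 with the block), all higher. Cd81 was called in 2 and Cdkn1c in 2 of the 4 comparisons that tested it, all higher, and Nap1l4 in 1, lower. The share of all genes called ran from 0% to 40.4% over these comparisons, and each share is given with the line it belongs to. Tssc4 was called in 0 of 18 by limma, in 0 at an unadjusted p under 0.05 and in 0 by edgeR. In a limma fit of the compared groups alone it was called in METTL3 cells without Dox (log2 change 0.66, adjusted p = 0.0474), as was Cd81 (0.67, 0.0459).

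**Figure D2:**
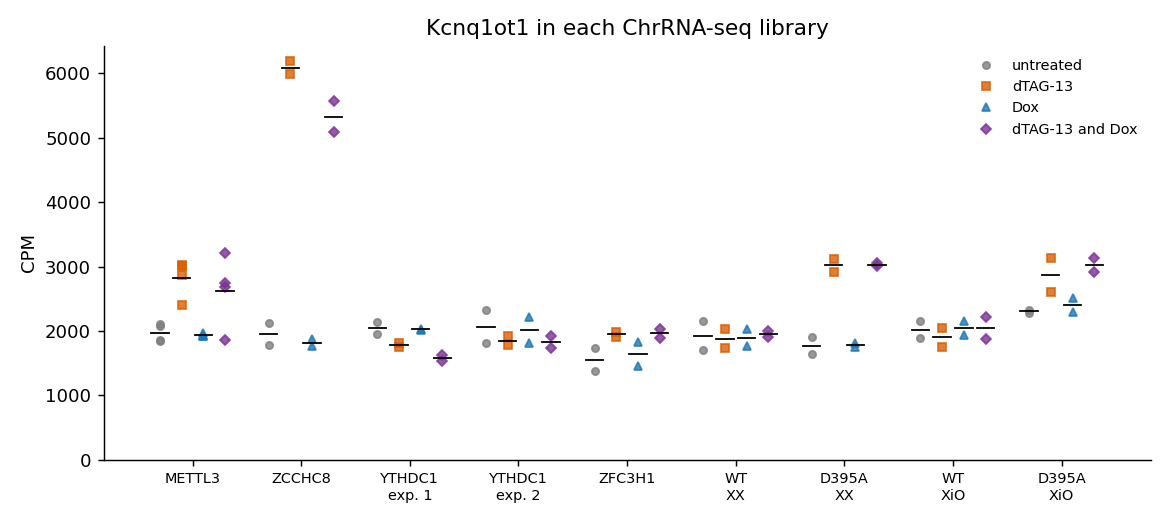
Kcnq1ot1 in each of the 80 libraries (CPM, linear axis), by line and treatment, with a black bar at each group's mean and n = 4 per METTL3 group and 2 per other group. The ZCCHC8 libraries with dTAG-13, at 5088 to 6185 CPM, stand above every other library.

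Depletion of ZCCHC8 went with the largest change of Kcnq1ot1. Untreated libraries held 1776 CPM in Z4F and 2118 CPM in Z12H, and with dTAG-13 alone these clones held 6185 and 5988 CPM. With Dox they held 1759 and 1869 CPM, and with dTAG-13 and Dox 5569 and 5088 CPM. The groups lay far apart in both clones. Kcnq1ot1 rose 3.13-fold without Dox (log2 change 1.65, SE 0.07, limma adjusted p = 8.08e-11) and 2.94-fold with Dox (1.55, SE 0.07, adjusted p = 1.15e-10). In the same comparisons limma called 36.1% and 40.4% of 13857 genes, and the median gene changed by -0.01 and 0.04.

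Kcnq1, whose span holds the noncoding RNA on the other strand, also rose in ZCCHC8 cells. Z4F and Z12H held 6.69 and 5.40 CPM untreated and 15.0 and 11.6 CPM with dTAG-13. Under Dox they held 5.60 and 6.03 CPM, and 14.2 and 13.6 CPM once dTAG-13 was added. No dTAG-13 library overlapped its control, and these levels rested on 123 to 150 reads without dTAG-13 and 201 to 368 with it. The fold of the means was 2.20 without Dox (log2 change 1.02, SE 0.12, adjusted p = 9.18e-06) and 2.39 with Dox (1.13, SE 0.12, adjusted p = 2.34e-06). As a share of Kcnq1ot1 reads, Kcnq1 reads were 0.255% and 0.376% untreated, 0.194% and 0.242% with dTAG-13, 0.318% and 0.323% with Dox, and 0.255% and 0.267% with both. Counting was strand-specific, and whether a small share of Kcnq1ot1 reads was assigned to Kcnq1 was not tested.

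Cdkn1c, the cell cycle inhibitor about 162 kb from the Kcnq1ot1 start, moved with them at a far lower level. Z4F and Z12H held 0.287 and 0.805 CPM untreated (6 and 20 reads) and 1.40 and 1.70 CPM with dTAG-13 (21 and 36 reads). With Dox the levels were 0.858 and 0.833 CPM (23 and 17 reads), and with both 2.78 and 2.77 CPM (72 and 41 reads). Levels in both clones were higher with dTAG-13, without overlap. Log2 changes were 0.74 (SE 0.15, adjusted p = 0.00145) without Dox and 1.03 (SE 0.15, adjusted p = 5.85e-05) with Dox. Cdkn1c passed the filter of this table only through its high libraries with dTAG-13, and with no filter its adjusted p was 0.00241 and 0.000242. Without clone Z4F the change without Dox was 0.58 and missed the threshold (adjusted p = 0.0593).

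Nap1l4, at the higher edge of the cluster, fell slightly in ZCCHC8 cells without Dox. It held 152.0 and 146.6 CPM untreated and 129.6 and 134.2 CPM with dTAG-13, a log2 change of -0.18 (SE 0.05, adjusted p = 0.0187). Under Dox its 4 libraries lay between 142.7 and 156.9 CPM and it was not called. The call without Dox was lost without the clone block (adjusted p = 0.0957) and without clone Z4F (0.238). Slc22a18, Tssc4 and Cd81 were not called in ZCCHC8 cells. Without Dox 3 of 6 neighbours were called, against 36.1% of all genes, and with Dox 2 of 6, against 40.4%. Cdkn1c is in both counts and entered the test only through its high libraries, and without it the counts were 2 of 5 and 1 of 5. Summed trophoblast markers in these cells were 24.5 to 29.0 CPM untreated, 30.4 to 33.6 CPM with dTAG-13, 22.9 to 25.9 CPM with Dox and 25.8 to 26.2 CPM with both. Feeder markers were 4.67 to 4.82 CPM untreated, 5.62 to 8.06 CPM with dTAG-13, 4.80 to 5.45 CPM with Dox and 5.61 to 6.44 CPM with both, higher with dTAG-13 without overlap. The sum of the primitive endoderm markers was lower with dTAG-13 without overlap, at 234 to 283 CPM untreated against 202 to 219 CPM, and at 328 to 361 CPM with Dox against 205 to 251 CPM. Lama1 makes up much of that sum, with a median of 201 CPM over all libraries beside 265 CPM for the list. Of 5 primitive endoderm markers tested, 1 was called higher and 1 lower in each contrast. Of 7 stem cell markers tested, 1 was called lower without Dox and 3 with Dox. Of 4 trophoblast markers tested, 2 were called higher without Dox and 1 with Dox. Of 2 feeder markers tested, 1 was called higher without Dox and 0 with Dox. Of all genes, 36.1% were called without Dox and 40.4% with Dox. The part of these cell types in the changes of Kcnq1ot1, Kcnq1 and Cdkn1c was not tested.

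YTHDC1 depletion moved Kcnq1ot1 the other way in experiment 1. Y9F and Y12H held 2034 and 2013 CPM with Dox and 1535 and 1624 CPM with dTAG-13 and Dox. Untreated they held 1961 and 2134 CPM, and 1751 and 1819 CPM with dTAG-13. Levels did not overlap in either contrast. Kcnq1ot1 fell by 0.36 on the log2 scale with Dox (SE 0.07, adjusted p = 0.00178) and by 0.20 without (SE 0.07, adjusted p = 0.0492), where limma called 15.5% and 19% of 13857 genes. The fall with Dox was not called without clone Y9F (-0.31, adjusted p = 0.132). The smaller fall without Dox lost its call without either clone, without the block, with no filter, with median-ratio scaling, with edgeR (adjusted p = 0.0592) and in a fit of the compared groups alone.

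In YTHDC1 experiment 2, the same clones gave smaller differences. Kcnq1ot1 was 2224 and 1811 CPM with Dox and 1914 and 1741 CPM with dTAG-13 and Dox. Untreated libraries held 2318 and 1814 CPM and those with dTAG-13 alone 1918 and 1778 CPM. Each clone was lower with dTAG-13, but the groups overlapped. The log2 changes of -0.14 (SE 0.07, adjusted p = 0.191) with Dox and -0.15 (SE 0.07, adjusted p = 0.131) without Dox did not pass, where 14.7% and 17.8% of 13722 genes were called. The difference between the experiments, which lie in separately normalised tables, was not tested.

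The neighbour called in YTHDC1 cells was Cd81, a broadly expressed tetraspanin whose start is at -243.797 kb from that of Kcnq1ot1. In experiment 1 it held 21.1 and 23.4 CPM with Dox and 33.6 and 30.2 CPM with dTAG-13 and Dox (log2 change 0.50, SE 0.14, adjusted p = 0.0208). In experiment 2 it held 36.2 and 43.4 CPM with Dox and 50.9 and 47.7 CPM with both (0.31, SE 0.08, adjusted p = 0.0180). Both clones were higher with dTAG-13 in both experiments. Without Dox the change was 0.16 in experiment 1 and 0.01 in experiment 2, and neither was called. Both calls were lost with no filter (adjusted p = 0.0799 and 0.0748) and without the clone block (0.198 and 0.511), and that of experiment 1 without Y9F (0.412) or Y12H (0.0855). With Dox, Cd81 was 1 of 6 neighbours called in experiment 1, where 15.5% of all genes were called, and 1 of 5 in experiment 2, where 14.7% were. In experiment 1 Slc22a18 averaged 0.568 CPM untreated and 1.05 CPM with dTAG-13, without overlap. The main fit did not call it, but edgeR did (adjusted p = 0.0474), as did limma with a pseudocount of 0.1 (0.0268). Its log2 change was 0.11 with Dox there, and 0.00 without and -0.02 with Dox in experiment 2.

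ZCCHC8 and YTHDC1 experiment 1 share a table, so the difference between the lines could be tested in 1 fit. For Kcnq1ot1 the log2 change was larger in ZCCHC8 than in YTHDC1 cells by 1.85 without Dox (SE 0.09, adjusted p = 6.31e-09) and by 1.91 with Dox (SE 0.09, adjusted p = 1.80e-09). For Kcnq1 it was larger by 0.73 (SE 0.17, adjusted p = 0.00542) and 1.10 (SE 0.17, adjusted p = 0.000179). For Cdkn1c it was larger by 0.97 (SE 0.22, adjusted p = 0.00368) and 0.86 (SE 0.22, adjusted p = 0.00720), and with no filter its adjusted p was 0.00584 and 0.00909. Without Cdkn1c, which entered the test through its high ZCCHC8 libraries, 2 of the 6 other members tested were called in each contrast, where 25.1% (without Dox) and 29.6% (with Dox) of all genes were called.

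**Figure D3:**
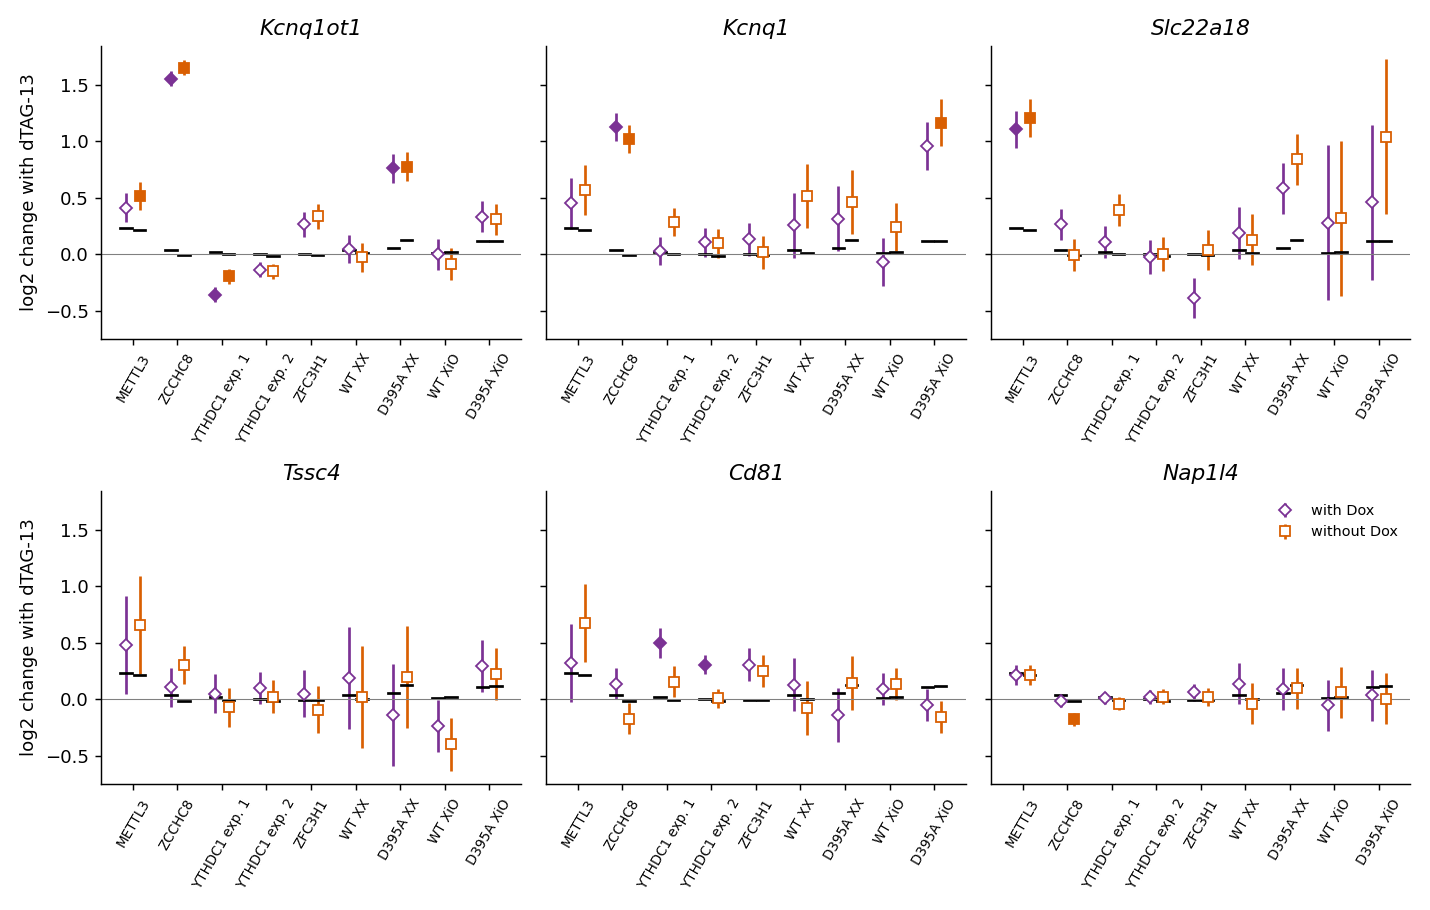
Log2 change with dTAG-13 of the 6 members tested in all tables (limma on log2(CPM + 1), error bars SE), by line, with Dox (diamonds) and without (squares). Filled symbols are called at an adjusted p under 0.05 (transgene lines without the replicate block), black bars mark the median of all genes, and the highest points are those of Kcnq1ot1 in the ZCCHC8 line, at 1.55 with Dox and 1.65 without.

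In METTL3 cells Kcnq1ot1 was higher with dTAG-13 in every clone without Dox. G4, H1, C3 and H5 held 2106, 2074, 1864 and 1852 CPM untreated and 3005, 2871, 3027 and 2409 CPM with dTAG-13. The groups did not overlap, and the log2 change was 0.52 (SE 0.13, adjusted p = 0.0133), against a median gene of 0.21 and with 23.3% of 13367 genes called. With median-ratio scaling, which takes out that shift, the change was 0.28 and was not called (adjusted p = 0.355), nor was it called by edgeR (0.222) or without clone G4 (0.0769), H1 (0.0548) or H5 (0.0628). With Dox, G4, H1, C3 and H5 held 1969, 1923, 1939 and 1920 CPM, and with dTAG-13 and Dox 3215, 2747, 1866 and 2685 CPM. C3 was not higher with dTAG-13, unlike the other 3 clones, and the change of 0.41 (SE 0.13, adjusted p = 0.0551) was not called, where 10.5% of genes were and the median gene changed by 0.23. Without C3 it was 0.57 and was called (adjusted p = 0.0201).

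Slc22a18, the organic cation transporter gene about 177 kb from the Kcnq1ot1 start, rose in METTL3 cells in both contrasts. G4, H1, C3 and H5 held 0.887, 0.844, 0.328 and 0.759 CPM untreated and 3.02, 4.62, 1.49 and 3.09 CPM with dTAG-13. With Dox they held 1.28, 2.64, 0.329 and 0.759 CPM, and 3.91, 4.79, 2.74 and 2.90 CPM with dTAG-13 and Dox. The groups did not overlap in either contrast, and each control library held 7 to 53 reads against 35 to 102 with dTAG-13. Slc22a18 rose 4.33-fold without Dox (log2 change on the CPM + 1 scale 1.20, SE 0.16, adjusted p = 0.000614) and 2.86-fold with Dox (1.10, SE 0.16, adjusted p = 0.00515). The call with Dox was lost without the clone block (adjusted p = 0.0712), in a fit of the compared groups alone (0.0857) and without G4 (0.0629) or H5 (0.0830). Slc22a18 passed the filter of 1 CPM through its libraries with dTAG-13. Group means were 0.704 CPM untreated and 1.25 CPM with Dox, against 3.05 and 3.58 CPM once dTAG-13 was added. With no filter its limma adjusted p was 0.00118 without Dox and 0.00846 with Dox. It was 1 of 5 neighbours called in each contrast, where 23.3% (without Dox) and 10.5% (with Dox) of all genes were called. Without it no neighbour was called in either contrast. The median change of the 5 was 0.66 without Dox and 0.45 with Dox, beside 0.21 and 0.23 for all genes. Summed trophoblast markers in METTL3 cells were 16.0 to 27.2 CPM untreated and 17.3 to 31.0 CPM with dTAG-13, and 13.5 to 20.4 CPM with Dox and 13.4 to 41.7 CPM with both. Feeder markers were 2.71 to 4.85, 3.82 to 6.65, 2.44 to 6.57 and 3.79 to 5.63 CPM in the same order. Of 4 trophoblast markers tested, 1 was called higher in each contrast. Of 2 feeder markers tested, 1 was called higher without Dox and 0 with Dox. Of all genes, 23.3% and 10.5% were called without and with Dox. The part of trophoblast or feeder cells in these changes was not tested.

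Kcnq1 in METTL3 cells differed from clone to clone. G4, H1, C3 and H5 held 6.80, 10.9, 5.24 and 7.13 CPM untreated and 21.3, 15.8, 5.43 and 8.46 CPM with dTAG-13. With dTAG-13 both N-terminally tagged clones were highest, and C3 barely differed from its untreated library. A clone difference was also present without dTAG-13. As a share of Kcnq1ot1 reads, Kcnq1 with Dox alone was 0.679%, 0.536%, 0.283% and 0.272% in G4, H1, C3 and H5. Untreated it was 0.323%, 0.527%, 0.281% and 0.385%. The log2 change was 0.57 (SE 0.23, adjusted p = 0.0812) without Dox and 0.45 (SE 0.23, adjusted p = 0.185) with Dox, and neither was called. Tssc4 ranged from 0.375 to 5.91 CPM in these 16 libraries and Cdkn1c from 0.141 to 1.75 CPM. With Dox, dTAG-13 changed Tssc4 by 2.33 and Cd81 by 1.78 on the log2 scale in C3, where Kcnq1ot1 changed by -0.06. In G4, H1 and H5 the changes were -0.42, 0.13 and -0.11 for Tssc4 and -0.43, -0.34 and 0.27 for Cd81.

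Phlda2 and Ascl2, both under the filter in every table, are given by their reads. Phlda2 had 0 reads in all 4 untreated METTL3 libraries. With dTAG-13 alone G4, H1, C3 and H5 held 19, 16, 5 and 23 reads, a mean of 0.934 CPM. That mean was at least 6.20-fold higher than the floor of 3 reads per library. With Dox the clones held 14, 6, 0 and 2 reads, and with dTAG-13 and Dox 22, 7, 11 and 1, so these groups overlapped. In D395A XiO cells Phlda2 held 1 and 8 reads untreated against 7 and 38 with dTAG-13, and 0 and 7 with Dox against 8 and 39 with both, apart and higher. In D395A XX cells it held 1 and 2 reads untreated against 3 and 12 with dTAG-13 (apart and higher), and 5 and 3 with Dox against 2 and 3 with both (apart and lower in CPM). With no filter neither line was called for Phlda2 (adjusted p = 0.306 to 0.844). In METTL3 cells, with no filter, the log2 change of Phlda2 was 0.91 without Dox (SE 0.18, adjusted p = 0.00764) and 0.17 with Dox (SE 0.18, adjusted p = 0.584). Over all 80 libraries Phlda2 was at most 1.36 CPM and at 0 in 7. Ascl2 was at most 0.946 CPM and at 0 in 3, and was called in no comparison with no filter.

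**Figure D4:**
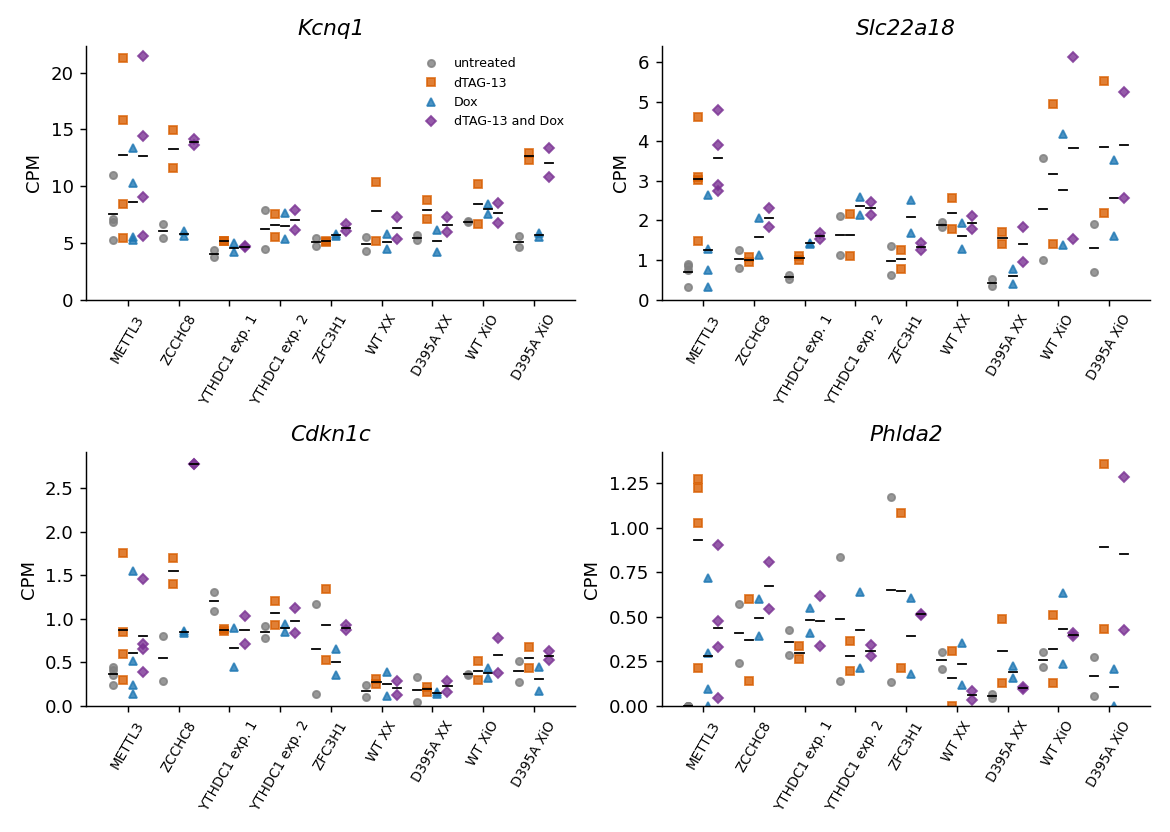
Kcnq1, Slc22a18, Cdkn1c and Phlda2 in each of the 80 libraries (CPM, linear axes that differ between panels), by line and treatment, with a black bar at each group's mean. Kcnq1 and Cdkn1c separate in ZCCHC8, Slc22a18 separates in METTL3, and Phlda2 is at 0 in the 4 untreated METTL3 libraries.

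The transgene lines asked whether METTL3 catalysis mattered, since dTAG-13 removes the tagged METTL3 and leaves the GFP-METTL3. With the D395A form in XX cells, the replicates held 1637 and 1899 CPM of Kcnq1ot1 untreated and 2917 and 3125 CPM with dTAG-13. They held 1821 and 1755 CPM with Dox and 3054 and 3009 CPM with both. The groups lay apart. Kcnq1ot1 rose 1.71-fold without Dox (log2 change 0.78, SE 0.13, adjusted p = 0.00700) and 1.70-fold with Dox (0.76, SE 0.13, adjusted p = 0.0115), where 6.01% and 3.19% of 13364 genes were called and the median gene changed by 0.12 and 0.06. With median-ratio scaling the changes were 0.63 and 0.69 and missed the threshold (adjusted p = 0.0570 and 0.0610), and leaving out either replicate lost both calls, all in the fit without the block. With the replicate as a block both calls held (adjusted p = 5.43e-06 and 8.86e-06), where 37.5% and 29.3% of genes were called.

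With WT in XX cells, Kcnq1ot1 lay between 1702 and 2155 CPM in all 8 libraries. The log2 change was -0.03 without Dox and 0.05 with Dox (SE 0.13, adjusted p rounding to 1.00 in both), in a line where limma called 0% of genes. Of 13364 genes, 29 and 39 had an unadjusted p under 0.05 without and with Dox (312 and 950 with the block, which also called 0%), and edgeR called 0. The difference between the D395A and WT changes in XX cells was 0.80 without Dox (SE 0.18, adjusted p = 0.151) and 0.72 with Dox (SE 0.18, adjusted p = 0.262), and was not called in that fit, nor was that of any other member by limma or edgeR, where 2 members without Dox and 1 with Dox had an unadjusted p under 0.05 and 0.00748% and 0.015% of genes were called. With the replicate as a block the difference was called in both contrasts (adjusted p = 0.000489 and 0.00132, SE 0.12), where 16.3% and 12.1% of genes were called. The call thus depends on the pairing of replicates.

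In the XiO lines Kcnq1ot1 was called with D395A only with the replicate as a block. D395A replicates held 2331 and 2287 CPM untreated, 3128 and 2608 CPM with dTAG-13, 2507 and 2301 CPM with Dox and 3135 and 2917 CPM with both. The groups did not overlap, but the log2 changes of 0.31 without Dox (SE 0.14, adjusted p = 0.430) and 0.33 with Dox (SE 0.14, adjusted p = 0.439) were not called without the block, where 0.402% and 0.0521% of 13448 genes were. With the block they were (SE 0.06, adjusted p = 0.00236 and 0.00176), where 34.4% and 31.1% of genes were called. With WT in XiO cells Kcnq1ot1 lay between 1755 and 2214 CPM and the log2 changes were -0.09 and 0.00 (SE 0.14), in a line with 0% of genes called, 18 and 14 genes at an unadjusted p under 0.05 without and with Dox (506 and 367 with the block, which also called 0%), and 0 called by edgeR. The D395A change was larger than the WT change by 0.39 without Dox and 0.34 with Dox (SE 0.20, adjusted p rounding to 1.00), where 0% of genes were called, 622 and 512 had an unadjusted p under 0.05 and edgeR called 0. With the block the difference was called (SE 0.09, adjusted p = 0.0114 and 0.0302), where 14.1% and 9.3% of genes were, and edgeR with the block gave an adjusted p of 0.0342 and 0.0886.

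Kcnq1 was called in D395A XiO and not in D395A XX cells. In D395A XiO cells Kcnq1 was 4.62 and 5.56 CPM untreated and 12.3 and 12.9 CPM with dTAG-13, a 2.48-fold rise (log2 change 1.16, SE 0.21, adjusted p = 0.0492). It was 5.85 and 5.55 CPM with Dox and 10.8 and 13.3 CPM with both (0.96, SE 0.21, adjusted p = 0.107). The groups lay apart in both contrasts. With the replicate as a block both were called (adjusted p = 8.75e-05 without Dox and 0.000415 with Dox), as was the D395A minus WT difference (0.93 and 1.03, adjusted p = 0.00923 and 0.00904). In the fit without the block the call without Dox was lost with another pseudocount (adjusted p = 0.0559), no filter (0.0592), median-ratio scaling (0.0578), edgeR (0.0711), the compared groups alone (0.494) and without either replicate. In D395A XX cells Kcnq1 was 5.25 and 5.68 CPM untreated and 7.11 and 8.74 CPM with dTAG-13 (0.46, SE 0.29, adjusted p = 0.400, and 0.113 with the block). As a share of Kcnq1ot1 reads, Kcnq1 in D395A XiO cells averaged 0.221% untreated and 0.444% with dTAG-13. It averaged 0.237% with Dox and 0.401% with both. In D395A XX cells the averages were 0.310%, 0.262%, 0.289% and 0.217% in the same order. These lines are in separate tables and their difference was not tested.

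Slc22a18 in D395A XX cells was 0.336 and 0.522 CPM untreated and 1.40 and 1.72 CPM with dTAG-13 (log2 change 0.84, SE 0.23, adjusted p = 0.0519). edgeR on the recovered reads called this change (adjusted p = 0.0320), as did limma with the block (0.000758). With Dox it was 0.402 and 0.768 CPM, and 0.951 and 1.84 CPM with both (0.58, SE 0.23, adjusted p = 0.207, and 0.0119 with the block). In D395A XiO cells it was 1.91 and 0.687 CPM untreated and 5.52 and 2.18 CPM with dTAG-13. With Dox it was 3.53 and 1.60 CPM, and 5.25 and 2.57 CPM with both. The replicates differed in their levels more than in their changes, which were 1.17 and 0.91 without Dox and 0.46 and 0.45 with Dox on the log2 scale. The mean changes of 1.04 and 0.46 were not called without the block (SE 0.69, adjusted p = 0.657 and 0.967) and were called with it (SE 0.14, adjusted p = 0.000182 and 0.0246). The D395A minus WT difference of Slc22a18 was called with the block without Dox (0.71 in XX, adjusted p = 0.0422, and 0.72 in XiO cells, 0.0289) and not with Dox (0.279 and 0.597).

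Without the block limma called 0 of 5 neighbours in D395A XX cells, where 6.01% and 3.19% of genes were called, and in D395A XiO cells 1 of 5 without Dox and 0 of 5 with Dox, where 0.402% and 0.0521% were. With the block it called 1 of 5 in each contrast in D395A XX cells (Slc22a18), beside 37.5% and 29.3% of genes, and 2 of 5 in D395A XiO cells (Kcnq1 and Slc22a18), beside 34.4% and 31.1%. In both WT lines it called 0 of 5 neighbours and 0% of genes in either fit, and edgeR called 0. In D395A XX cells summed primitive endoderm markers were 254 to 321 CPM untreated and 160 to 233 CPM with dTAG-13, and stem cell markers 1730 to 1739 and 1313 to 1396 CPM. In D395A XiO cells these were 301 to 306 and 234 to 237 CPM, and 1382 to 2189 and 1377 to 1604 CPM, and their part in the changes was not tested.

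ZFC3H1 depletion gave no called change of Kcnq1ot1. Clones 8H and 11A held 1740 and 1371 CPM untreated, 1911 and 1984 CPM with dTAG-13, 1828 and 1459 CPM with Dox and 2036 and 1886 CPM with both. Both clones were higher with dTAG-13 without overlap of the groups. The log2 changes of 0.33 without Dox (SE 0.11, adjusted p = 0.150) and 0.26 with Dox (SE 0.11, adjusted p = 0.227) were not called, where 2.15% and 3.15% of 13544 genes were. None of the 5 neighbours was called by limma or edgeR, with 1 of 6 members at an unadjusted p under 0.05 in each contrast. In a limma fit of the compared groups alone Kcnq1ot1 passed in both contrasts (adjusted p = 0.0497 without Dox and 0.00619 with Dox). That fit holds few libraries and leans heavily on the spread shared across genes, so this call carries little weight.

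Whether Xist induction altered these changes was tested as the difference between the contrast with Dox and that without. Over 56 tests of members in 9 lines limma called 0, 1 had an unadjusted p under 0.05 (Cd81 in YTHDC1 experiment 2, named after its values were seen) and edgeR called 0. For Kcnq1ot1 the differences ranged from -0.16 in YTHDC1 experiment 1 (SE 0.09) to 0.09 in WT XiO (SE 0.20), and in ZCCHC8 cells the difference was -0.10 (SE 0.09, adjusted p = 0.795). Among all genes, limma called 0.238% in ZCCHC8, 0.0219% in YTHDC1 experiment 2 and 0.00722% in YTHDC1 experiment 1. It called 0% in METTL3, ZFC3H1 and the 4 transgene lines, where 10 to 519 genes had an unadjusted p under 0.05 and edgeR called 0. With the replicate as a block in the transgene lines no member was called either, and 0.00744% of genes were called in D395A XiO and 0% in the other 3 lines.

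Other genes around the cluster were counted from chromosome 7 within 1 Mb of Kcnq1ot1. There were 31 of them, of which 11 or 12 passed the filter, depending on the table. In ZCCHC8 cells 6 of 12 were called in each contrast, 4 higher and 2 lower without Dox, and 5 higher and 1 lower with Dox, beside 36.1% and 40.4% of all genes. In METTL3 cells 4 of 12 were called without Dox, beside 23.3% of all genes, and 3 of 12 with Dox, beside 10.5%, all higher. In D395A XX cells 1 of 11 was called in each contrast, and 5 and 3 with the replicate as a block (37.5% and 29.3% of genes). In D395A XiO cells 0 were called, and 6 and 4 with the block (34.4% and 31.1%), all higher. Named by the rule of at least 4 calls were Tspan32, a tetraspanin gene beside Cd81, and Osbpl5, an oxysterol-binding protein gene on the far side. Tspan32 rose in ZCCHC8 cells by 0.55 without Dox (SE 0.18, adjusted p = 0.0238) and 1.19 with Dox (SE 0.18, adjusted p = 5.84e-05). In METTL3 cells it rose by 1.02 (SE 0.22, adjusted p = 0.00773) and 1.01 (SE 0.22, adjusted p = 0.0179). Osbpl5 rose in METTL3 cells by 0.69 and 0.79 without and with Dox (SE 0.23, adjusted p = 0.0492 and 0.0486) and in D395A XX cells by 1.14 and 0.86 (SE 0.18, adjusted p = 0.00623 and 0.0297). In METTL3 cells the median gene rose by 0.21 without Dox and 0.23 with Dox. The METTL3 changes of Tspan32 and Osbpl5 still include that shift. Osbpl5 was not called in ZCCHC8 cells, where its changes were 0.06 and 0.28. With the block limma also called Osbpl5 in D395A XiO cells, at 0.88 and 0.83 without and with Dox (adjusted p = 0.000222 and 0.000435). Tspan32 was called with the block in D395A XX cells, at 0.53 and 0.60 (adjusted p = 0.0298 and 0.0185). In D395A XiO cells Tspan32 was called with it at 1.11 and 1.17 (adjusted p = 0.00181 and 0.00162).

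Genes known for silencing by Kcnq1ot1 or for keeping its imprint were read from a list of 14, all tested. They encode the histone methyltransferases Ehmt1 and Ehmt2, Polycomb subunits, Hnrnpk, Dnmt1, Ctcf, Zfp57 and Trim28. In ZCCHC8 cells 5 were called without Dox, all lower, and 6 with Dox, 5 lower and 1 higher, with a median of -0.12 in both. These shares are near the 36.1% and 40.4% of all genes called there. Elsewhere 0 to 3 were called, but with the replicate as a block 8 and 5 in D395A XX and 7 and 6 in D395A XiO cells without and with Dox, beside the same 37.5%, 29.3%, 34.4% and 31.1% of genes. Zfp57, which guards imprinted methylation with Trim28, was called lower in 5 comparisons with the transgene lines fitted without the block. It fell by 0.43 and 0.59 in YTHDC1 experiment 1 without and with Dox (SE 0.07, adjusted p = 0.000485 and 4.05e-05) and by 0.37 and 0.53 in experiment 2 (SE 0.07, adjusted p = 0.000607 and 1.75e-05). In ZCCHC8 cells Zfp57 fell by 0.31 with Dox (SE 0.07, adjusted p = 0.00190). With the block limma also called Zfp57 lower in D395A XX cells, with changes of -0.41 without Dox and -0.31 with Dox (adjusted p = 0.000531 and 0.00587). In D395A XiO cells it was called with the block at -0.41 with Dox (adjusted p = 0.00943), and not at -0.10 without Dox (0.480). Pcgf3, a Polycomb subunit, rose in METTL3 cells by 0.49 and 0.37 without and with Dox and in D395A XX cells by 0.33 and 0.34, and in ZCCHC8 cells it fell by 0.19 and 0.16. The METTL3 changes include the rise of the median gene there, 0.21 without Dox and 0.23 with Dox. With the block limma also called Pcgf3 in D395A XiO cells, at 0.31 without Dox and 0.21 with Dox (adjusted p = 0.00400 and 0.0349).

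Genes whose pattern over the 18 comparisons was most like that of Kcnq1ot1 were sought among 12670 genes tested in all tables. As a description, Pearson's r of the log2 changes, each minus its comparison's median, was highest for Ak7 (0.96), Zcchc16 (0.95), Gm5089 (0.93), Fbxo34 (0.92) and 1700120C14Rik (0.92), which lie on other chromosomes. Comparisons of a line share clones, and the ZCCHC8 pair sets much of this measure. Over the 16 comparisons without ZCCHC8 r was 0.84, 0.79, 0.85, 0.76 and 0.73 for these genes. Of the neighbours, Kcnq1 had an r of 0.67 (0.25 without ZCCHC8) and Slc22a18 0.05 (0.41 without ZCCHC8). Tssc4 had an r of 0.32, Cd81 -0.33 and Nap1l4 -0.40 over the 18 comparisons.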

How the data were processed

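ChrRNA-seq of 80 libraries was used, in 36 groups taken from the sample titles. Per the labels and the study's methods, the authors filtered out rRNA with Bowtie2 and mapped the rest with STAR to mm10, counted strand-specific reads over whole transcripts, introns included, with featureCounts, and scaled them to CPM with edgeR. For dTAG-13 alone the sample titles (26 h) were used over the treatment text (2 h). The deposited values are CPM, and 100% of them were whole multiples of a single read (within 0.1 read), which gave depth and the reads used for edgeR 4.0.16. The 6 tables have separate normalisation and tests were run within tables. The YTHDC1 tables have the same column names, and the table named as the second was taken as experiment 2. Another 12 columns matched no sample and were not used. The allelic tables hold X-linked genes and were not used here.

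Tests used limma 3.58.1 in R 4.3.3 (lmFit, eBayes with trend, two-sided) on log2(CPM + 1), with all libraries of a table in a fit, a mean of at least 1 CPM, and clone as a block in degron lines. The transgene lines were fitted without a block and, as an alternative, with the replicate as a block. Fold changes on that scale understate changes of low genes. Folds given without a log are ratios of mean CPM. The pairing comes from the clone in the titles, and in transgene lines from the study's statement that each replicate's wells shared a batch of cells. Across genes, residual profiles of a clone's libraries correlated at 0.33 to 0.61 in ZCCHC8, 0.18 to 0.52 and 0.68 to 0.79 in YTHDC1 experiments 1 and 2, 0.81 to 0.90 in ZFC3H1 and -0.18 to 0.86 in METTL3, and those of a transgene replicate at 0.43 to 0.92. Scripts were tested on simulated data. Alternatives were edgeR, median-ratio scaling, a pseudocount of 0.1, no filter, other blocks, the compared groups alone and leaving out replicates. A limma fit of the compared groups alone holds few libraries and leans heavily on the spread shared across genes. It gave Kcnq1ot1 in YTHDC1 experiment 1 with Dox an adjusted p of 3.88e-54 from 2 clones, so its p values are not taken at face value. Named genes were the members (described per library where called), genes within 1 Mb and silencing genes called in at least 4 comparisons, and the 5 genes most like Kcnq1ot1. The members and lists were chosen with earlier results of these data known.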

Additional observations from a re-analysis of the deposited data

Results flagged for a closer look

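Kcnq1ot1, Kcnq1 and Cdkn1c changed differently with dTAG-13 in ZCCHC8 and YTHDC1 experiment 1 cells by a test of the difference itself (limma). The ZCCHC8 log2 change was larger by 1.85, 0.73 and 0.97 for these genes without Dox and by 1.91, 1.10 and 0.86 with Dox. Cdkn1c entered this test through its high ZCCHC8 libraries with dTAG-13, and with no filter its adjusted p was 0.00584 without Dox and 0.00909 with Dox. The lines differ in the protein depleted and in the clone.

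Tssc4 in METTL3 clone C3 with dTAG-13 held 0.849 CPM, far below the other 3 clones of the group (3.90 to 4.16 CPM). It was the single such value among the 36 sets of 4 clones (9 members in 4 METTL3 groups), where chance gives about 1 in 20. Tssc4 in C3 differed little between dTAG-13 and untreated (log2 change 0.12), and it rose by 2.33 with dTAG-13 and Dox against Dox. The untreated Phlda2 set, at 0 in all 4 libraries, could not be tested.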

How the results depend on the processing

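Over 52 results and 362 alternatives, 284 kept their direction and side of the threshold (or their count), 39 lost a call, 10 gained one, 22 moved and 7 changed sign. The ZCCHC8 changes of Kcnq1ot1 and Kcnq1 and the ZCCHC8 minus YTHDC1 differences of Kcnq1ot1 were called under each alternative run. The causes of the shifts below were not tested.

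Kcnq1ot1 in METTL3 cells without Dox was not called with median-ratio scaling (0.28) or edgeR (0.33) and ranged from 0.45 to 0.56 without 1 clone, and with Dox from 0.31 to 0.57. In D395A XX cells it was 0.69 and 0.63 (with and without Dox) with median-ratio scaling, and 0.75 to 0.78 and 0.72 to 0.83 without 1 replicate, not called. In YTHDC1 experiment 1 it ranged from -0.41 to -0.31 with Dox and from -0.23 to -0.16 without Dox when 1 clone was left out, and without Dox it was not called with median-ratio scaling (-0.21), no filter, no block, edgeR or the compared groups alone (-0.20 in each). With the compared groups alone it was called in experiment 2 with Dox (-0.14) and in ZFC3H1 cells (0.26 with and 0.33 without Dox). That fit rests on few libraries, and its calls carry little weight. In WT lines, never called, it ranged from -0.087 to 0.18 (XX with Dox), -0.087 to 0.029 (XX without Dox) and -0.044 to 0.040 (XiO with Dox) without 1 replicate. The Dox difference changed sign with median-ratio scaling and edgeR in YTHDC1 experiment 2 (-0.0085 and -0.0058) and D395A XX cells (0.052 and 0.059).

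Blocking on the replicate, which pairs libraries from a shared batch of cells, changed calls in the D395A lines. Without and with Dox, 37.5% and 29.3% of all genes were then called in D395A XX and 34.4% and 31.1% in D395A XiO cells. With this block Kcnq1ot1 was called in D395A XiO cells (0.33 with Dox, adjusted p = 0.00176, and 0.31 without, 0.00236), as was the D395A minus WT difference in XX cells (0.72, 0.00132, and 0.80, 0.000489) and in XiO cells (0.34, 0.0302, and 0.39, 0.0114), and 1 neighbour was called in D395A XX and 2 in D395A XiO cells.

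Neighbours called changed in METTL3 cells (2 with no filter, 3 with the compared groups alone), YTHDC1 experiment 1 (2 with edgeR or a pseudocount of 0.1, 0 with no filter, no block or 1 clone left out), experiment 2 (0 with no filter or no block), ZFC3H1 (1 with the compared groups alone), D395A XX (1 with edgeR or a pseudocount of 0.1) and D395A XiO cells (0 with edgeR, median-ratio scaling, no filter, a pseudocount of 0.1, the compared groups alone or 1 replicate left out). Without and with Dox, edgeR called 2781 and 2297 of 13857 genes in YTHDC1 experiment 1. It called 718 and 401 of 13364 in D395A XX and 8 and 1 of 13448 in D395A XiO cells. For the other alternatives in these counts the share of all genes called was not computed, so the counts cannot be read against it. In ZFC3H1 and YTHDC1 experiment 2 leaving out a clone leaves no spread and no test, and elsewhere a lone library is assumed to vary like the other groups. Cdkn1c, Phlda2, Ascl2 and Slc22a18 rest on few reads, and counting error limits them.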
